A study of Mus musculus with 6 samples.

Results

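The transcripts of 10 genes that mark alveolar type I (AT1) cells were followed in RNA-seq libraries of mouse lung ECs. The genes, Ager, Hopx, Pdpn, Aqp5, Rtkn2, Clic5, Cldn18, Akap5, Sema3e and Igfbp2, were taken by name as known AT1 genes from the 47729 genes counted. Each of the 10 was found in the count tables, and each passed the filter on low counts. Libraries came from 3 WT and 3 leene-KO samples, where leene is the mouse homolog of the human lncRNA LEENE and the syntenic region was deleted in every cell of the KO mice, whose WT littermates served as controls. The deleted lncRNA has no entry in the annotation that was counted, so the deletion was not checked here. Both groups were male, 14 weeks old, on normal chow, on the C57BL6 background, and received AngII at 1000 ng/kg/min for 2 weeks from an osmotic pump, so no group without AngII was compared. The sample labels call the cells CD31-enriched and describe cells of 3 mice per group pooled for RNA extraction, whereas the methods of the study name sorting with anti-CD144 beads and its legend 3 mice per group. Replicates here are therefore libraries, and if the libraries of a group came from 1 pool, the p-values measure technical spread only.

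AT1 cells are the thin, flat epithelial cells that cover most of the gas-exchange surface and share a fused basement membrane with the capillary ECs beneath them. They arise in part from the cuboidal alveolar type II (AT2) cells, which make surfactant. Their known products include the receptor RAGE, podoplanin, water and ion channels, tight junction claudins, and basement membrane proteins. ECs are sorted from lung tissue that is digested with collagenase, in which both cell types lie side by side. Some of the 10 genes are also known from other cells, such as Pdpn from lymphatic ECs and mesothelium, Cldn18 from AT2 cells, and Hopx from heart muscle and lymphocytes.

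AT1 transcripts were found in every library. The lowest count of any of the 10 genes in any library was 181, and the sum over the 10 genes lay between 0.145% and 0.242% of all counts. Total counts were between 24464324 and 35184063 in WT and between 26159650 and 29189294 in KO libraries, and mitochondrial genes took 37.4% to 54.5% of them. The EC genes Pecam1, which encodes CD31, and Cdh5, which encodes CD144, were present at 313, 439.6 and 582 CPM in WT-1 to WT-3 and 563, 379 and 449 CPM in KO-1 to KO-3 for Pecam1 and at 178, 365 and 578 CPM in WT-1 to WT-3 and 753, 340.3 and 499 CPM in KO-1 to KO-3 for Cdh5. CPM is the count of a gene scaled to library size after scaling of the libraries by edgeR's TMM method, whose factor was 1.37 in WT-1, the library that stood apart, and 0.874 to 1.04 in the other 5 libraries. On a scale per gene length (RPKM, the CPM divided by the gene's exon length in kilobases), which allows levels to be compared between genes, Ager was highest with a mean over the 6 libraries of 333 RPKM (99.9 to 510.5). Hopx followed with 132 RPKM (92.2 to 190.4), then Clic5 with 85.7 RPKM (71.5 to 106), Aqp5 with 74.8 RPKM (32.1 to 115) and Cldn18 with 66.6 RPKM (50.1 to 90.0), where the range over libraries is in parentheses. The ranges of Clic5, Aqp5 and Cldn18 overlapped, and that of Hopx overlapped those of Clic5 and Aqp5 but lay above that of Cldn18. Pdpn, Akap5 and Igfbp2 came next at 23.7 RPKM (16.8 to 34.5), 16.6 RPKM (6.20 to 31.1) and 12.6 RPKM (8.70 to 20.5), again with overlap, and Rtkn2 and Sema3e were lowest at 4.09 RPKM (1.40 to 6.44) and 2.72 RPKM (1.33 to 4.01). The order was not the same in each library, since Ager was at 99.9 RPKM in WT-1, below Hopx at 190.4 and Clic5 at 106 RPKM.

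None of the 10 AT1 genes passed when KO was tested against WT with edgeR's quasi-likelihood method, which was run over 14625 genes with Benjamini-Hochberg adjustment and a threshold of 0.05. Of all genes tested 0.109% passed, 0.0342% higher and 0.0752% lower in KO. Before adjustment the count was also 0 of 10, against 10.3% of all genes, 5.62% higher and 4.68% lower. For 0 of 10 the 3 KO libraries lay entirely on one side of the 3 WT libraries, against 17.8% of all genes. DESeq2 called 0 of 10 at an adjusted p under 0.05, against 1.21% of all genes. Of the log2 fold changes (KO minus WT), 5 were above 0 and 5 below (54.1% of all genes were above 0), with a median of -0.06 beside 0.03 over all genes tested. Cldn18 and Igfbp2, slightly above 0, fell below it when libraries were scaled by total counts alone. Adjusted p-values ran from 0.543 for Hopx to 0.972 for Cldn18. In bulk RNA, fewer cells of a type and less RNA per cell cannot be told apart, so a level below is that of the whole library. The call depends on WT-2 in the case of Ager and Aqp5. Without that library, Ager had a log2 fold change of 1.46 (adjusted p = 0.0473) and Aqp5 one of 1.27 (adjusted p = 0.0293, edgeR's quasi-likelihood test), when 5.29% of all genes were called, 4.41% as higher in KO.

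**Figure D1:**
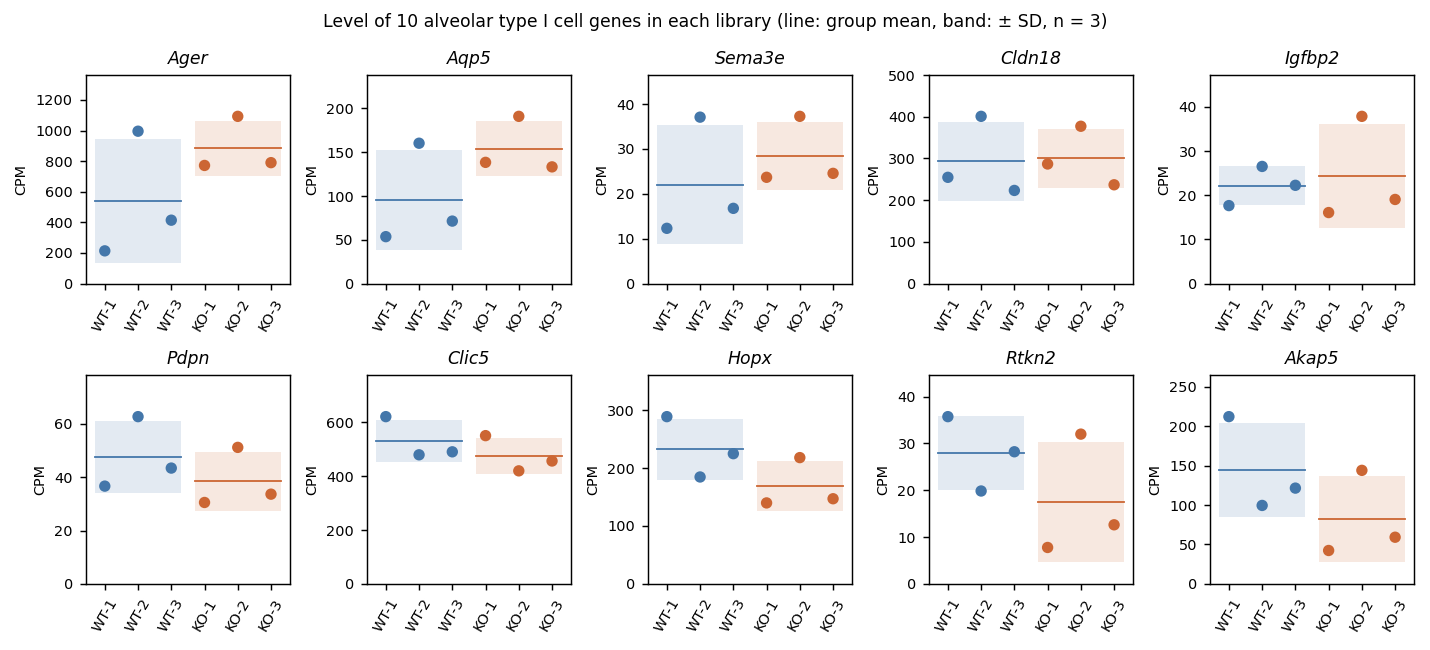
CPM of the 10 AT1 genes in the 6 libraries (x axis, library; y axis, CPM from 0). Points are libraries, lines the group means and bands the SD over 3 libraries. Ager, Aqp5 and Sema3e are lowest in WT-1, while Hopx, Rtkn2, Akap5 and Clic5 are highest there, and KO-2 is the highest KO library for each gene but Clic5.

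Promoter sequences from RefSeq (GRCm38.p6, the same build as the counts) were available for 9 of the 10 genes, with 12 starts. They were searched on both strands, over the 250 bases before the start, for 3 short words bound by factors of the AT1 lineage. The TEAD word GGAATG was in 0 of the 12, against 12.6% of 32851 promoters. The NKX2-1 word CAAGTG was in 1 of the 12, against 11.6%, and the GATA word TTATCT in 1 of the 12, against 9.99%. Both promoters with a word were those of Cldn18, which has 2 annotated starts. The downstream start had 1 NKX2-1 word, and the upstream start 2 GATA words, 1 on each strand. Counts were made per gene, so which Cldn18 start was used in these libraries was not determined. The Cldn18 sequences are shown with the words in capitals, beside those of Ager and Akap5, the genes whose levels differed most in pattern over the 6 libraries. The 4 sequences run 5′ to 3′ on the strand of the gene.
Ager, plus strand, chr17:34597600-34597849: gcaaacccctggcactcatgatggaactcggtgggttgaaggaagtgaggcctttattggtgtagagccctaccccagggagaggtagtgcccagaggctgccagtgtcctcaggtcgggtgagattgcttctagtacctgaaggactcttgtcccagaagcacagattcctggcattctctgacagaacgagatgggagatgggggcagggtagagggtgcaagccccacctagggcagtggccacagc
Akap5, plus strand, chr12:76324641-76324890: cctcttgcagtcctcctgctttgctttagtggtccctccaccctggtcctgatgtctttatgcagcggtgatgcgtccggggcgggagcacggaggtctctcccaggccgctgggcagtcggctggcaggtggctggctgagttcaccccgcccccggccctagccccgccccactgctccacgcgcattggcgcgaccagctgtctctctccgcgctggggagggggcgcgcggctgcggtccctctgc
Cldn18, minus strand, downstream start, chr9:99710064-99710313: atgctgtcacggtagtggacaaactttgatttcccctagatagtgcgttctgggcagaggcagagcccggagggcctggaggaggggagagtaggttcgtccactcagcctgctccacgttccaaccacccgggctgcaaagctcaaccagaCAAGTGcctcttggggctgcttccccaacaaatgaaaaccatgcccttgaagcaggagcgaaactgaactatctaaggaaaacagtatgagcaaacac
Cldn18, minus strand, upstream start, chr9:99717268-99717517: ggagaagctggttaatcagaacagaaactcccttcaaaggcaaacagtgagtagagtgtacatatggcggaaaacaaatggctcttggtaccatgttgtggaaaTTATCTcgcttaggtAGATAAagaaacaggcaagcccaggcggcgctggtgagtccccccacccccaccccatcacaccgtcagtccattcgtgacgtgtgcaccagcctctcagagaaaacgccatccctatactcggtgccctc
The promoters of Ager and Akap5 held none of the 3 words in this window. A guanine and cytosine content of 57.6% for Ager and 70.0% for Akap5 was computed from them.

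Ager (ENSMUSG00000015452, chromosome 17, 34597862 to 34600936, plus strand, GRCm38) encodes RAGE, a cell surface receptor of the immunoglobulin superfamily that is very abundant on AT1 cells. It was at 214, 996 and 414 CPM in WT-1, WT-2 and WT-3 and at 772, 1093 and 790.3 CPM in KO-1, KO-2 and KO-3. WT-2 was thus on the level of the KO libraries, and WT-1 and WT-3 lay below all of these. The means were 541 ± 406 CPM for WT against 885 ± 180.2 CPM for KO (SD, n = 3 each), and the log2 fold change was 0.71 (standard error 0.51, 95% interval -0.48 to 1.90). Ager differed 4.66-fold between the highest and lowest WT library and 1.42-fold between the KO libraries. Its SD of log2 CPM over the WT libraries, 1.11, was at percentile 95.5 of all genes tested, whose median was 0.28.

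Pdpn (ENSMUSG00000028583, chromosome 4, 143267431 to 143299564, minus strand) encodes podoplanin, a mucin-type glycoprotein long used as a surface marker of AT1 cells. It was at 36.6, 62.7 and 43.4 CPM in WT-1, WT-2 and WT-3 and at 30.5, 51.2 and 33.6 CPM in KO-1, KO-2 and KO-3. The ranges overlapped, and WT-2 and KO-2 were highest in their groups. Its log2 fold change was -0.31 (standard error 0.26, 95% interval -0.91 to 0.30). The 6 lymphatic EC genes, whose cells also make podoplanin, summed to 186 to 413 CPM in WT and 162 to 249.7 CPM in KO. Of these genes 0 were called, and the sum was highest in WT-3, where Pdpn was at 43.4 CPM. Most of that sum was Lyve1. It was at 156, 247 and 357 CPM in WT-1 to WT-3 and 193, 126 and 199.8 CPM in KO-1 to KO-3. Lyve1 had a log2 fold change of -0.55, whereas 4 of the 6 genes lay above 0 and 2 below, with a median of 0.30. The part of lymphatic ECs in the level of Pdpn was not tested.

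Among the channel and junction genes, Aqp5 (ENSMUSG00000044217, chromosome 15, 99590849 to 99594829, plus strand), the water channel of the apical membrane, was at 53.6, 160.3 and 71.4 CPM in WT-1, WT-2 and WT-3 and at 138, 191 and 133 CPM in KO-1, KO-2 and KO-3. As with Ager, WT-1 and WT-3 lay below every KO library and WT-2 lay among them. The means were 95.1 ± 57.2 CPM for WT against 154 ± 31.9 CPM for KO (SD, n = 3 each), and the log2 fold change was 0.70 (standard error 0.39, 95% interval -0.21 to 1.61). Cldn18 (ENSMUSG00000032473, chromosome 9, 99689461 to 99717267, minus strand), a claudin of alveolar tight junctions, was at 255, 401 and 223 CPM in WT-1, WT-2 and WT-3 and at 287, 377 and 237 CPM in KO-1, KO-2 and KO-3. Its groups covered nearly the same range, and its log2 fold change of 0.04 (standard error 0.28) had a 95% interval of -0.61 to 0.68. Clic5 (ENSMUSG00000023959, chromosome 17, 44188572 to 44280168, plus strand) belongs to the chloride intracellular channel family and is known to bind the actin cytoskeleton through ezrin. It was at 621, 479.6 and 491 CPM in WT-1, WT-2 and WT-3 and at 551, 420.0 and 457 CPM in KO-1, KO-2 and KO-3. It was the steadiest of the 10 genes, with a 1.30-fold range in WT and a 1.31-fold range in KO. Its log2 fold change was -0.16 (standard error 0.21, 95% interval -0.64 to 0.33), so a change of 1 log2 unit in either direction lay outside the interval.

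Hopx, Rtkn2 and Akap5 act inside the cell. Hopx (ENSMUSG00000059325, chromosome 5, 77086988 to 77115121, minus strand) encodes a small homeodomain protein that does not bind DNA and marks the AT1 lineage. It was at 289, 185 and 225 CPM in WT-1, WT-2 and WT-3 and at 139.8, 218 and 147 CPM in KO-1, KO-2 and KO-3. WT-1 was the highest library, and KO-2 lay between WT-2 and WT-3 while the other KO libraries lay below all WT libraries. The means were 233 ± 52.5 CPM for WT against 168 ± 43.2 CPM for KO (SD, n = 3 each), and its log2 fold change of -0.47 (standard error 0.24, 95% interval -1.04 to 0.10) came with the lowest p of the 10 genes (0.0935 unadjusted, edgeR's quasi-likelihood test). An annotated antisense gene, Hopxos, overlaps it on the plus strand, as predicted antisense genes do Rtkn2 and Cldn18, and the counts were made by strand.

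Rtkn2 (ENSMUSG00000037846, chromosome 10, 67979570 to 68059740, plus strand) encodes rhotekin 2, an intracellular protein of the rhotekin family. It was at 35.7, 19.8 and 28.2 CPM in WT-1, WT-2 and WT-3 and at 7.78, 32.0 and 12.6 CPM in KO-1, KO-2 and KO-3. KO-1 and KO-3 were below all WT libraries, whereas KO-2 was above WT-2 and WT-3. The log2 fold change was -0.68 (standard error 0.48, 95% interval -1.79 to 0.44). Akap5 (ENSMUSG00000021057, chromosome 12, 76324891 to 76334153, plus strand) encodes a scaffold that holds protein kinase A and calcineurin at the membrane. It was at 212, 99.5 and 121 CPM in WT-1, WT-2 and WT-3 and at 42.3, 144 and 59.2 CPM in KO-1, KO-2 and KO-3. The same libraries were high and low as for Rtkn2, with WT-1 at the top and KO-1 at the bottom. Its means were 144 ± 59.7 CPM for WT against 81.8 ± 54.5 CPM for KO (SD, n = 3 each), and its log2 fold change, -0.82 (standard error 0.48, 95% interval -1.92 to 0.29), was the furthest from 0 among the 10 genes. The spread over the KO libraries was wide for both genes, with SDs of log2 CPM of 1.03 and 0.91, at percentiles 98.4 and 97.3 of all genes tested (median 0.20).

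The products of the other two genes are secreted. Sema3e (ENSMUSG00000063531, chromosome 5, 14025276 to 14256689, plus strand) encodes a semaphorin whose receptor, plexin-D1, is found on ECs. It was at 12.3, 37.1 and 16.8 CPM in WT-1, WT-2 and WT-3 and at 23.7, 37.3 and 24.6 CPM in KO-1, KO-2 and KO-3. Its libraries were ordered much as those of Ager and Aqp5, and its log2 fold change was 0.37 (standard error 0.40, 95% interval -0.55 to 1.29). A pair of predicted genes, Gm43519 and Gm43523, overlaps Sema3e on the same strand, and reads in shared exons were not counted. Igfbp2 (ENSMUSG00000039323, chromosome 1, 72824503 to 72852474, plus strand) encodes an insulin-like growth factor binding protein found in mature AT1 cells. It was at 17.6, 26.5 and 22.2 CPM in WT-1, WT-2 and WT-3 and at 16.1, 37.9 and 19.0 CPM in KO-1, KO-2 and KO-3. KO-2 was the highest of the 6 libraries and KO-1 the lowest, and the log2 fold change was 0.14 (standard error 0.32, 95% interval -0.61 to 0.89).

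**Figure D2:**
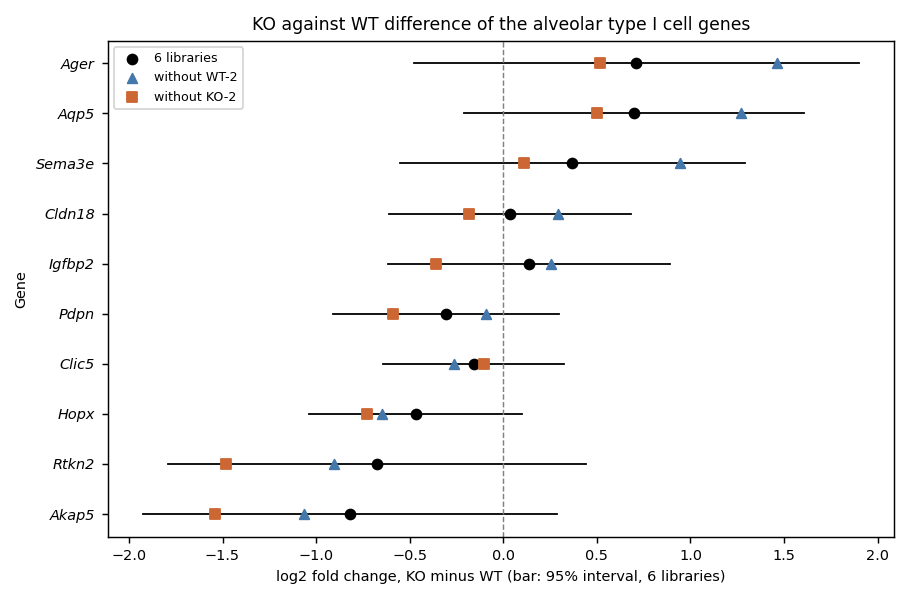
log2 fold change (x axis, KO minus WT) of the 10 AT1 genes (y axis) with all 6 libraries (circles, with 95% intervals), without WT-2 (triangles) and without KO-2 (squares). Every interval of the 6-library fit includes 0, and leaving out WT-2 moves Ager from 0.71 to 1.46 and leaving out KO-2 moves Akap5 from -0.82 to -1.54.

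KO-2 was the highest KO library for 9 of the 10 AT1 genes, Clic5 being the exception, where it was the lowest. Without KO-2, 4 genes had an unadjusted p under 0.05 (edgeR's quasi-likelihood test), against 6.59% of all genes, and all 4 were lower in KO. These were Akap5 with a log2 fold change of -1.54, Rtkn2 with -1.48, Hopx with -0.73 and Pdpn with -0.59. None passed after adjustment, where the lowest adjusted p was 0.524 for Rtkn2. Without WT-2, 4 genes likewise had an unadjusted p under 0.05, against 21.3% of all genes. They were Ager, Aqp5 and Sema3e (0.94), higher in KO, and Hopx (-0.65), lower in KO. Hopx was the gene common to both sets of 4. Without WT-1, whose scaling factor stood apart, the log2 fold change was 0.32 for Ager and 0.41 for Aqp5, and 0 of the 10 genes were called.

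The libraries did not rank the 10 genes alike. Profiles were compared as the Euclidean distance between the log2 CPM of the 6 libraries, each gene centred on its own mean. Over the 45 pairs of AT1 genes the median distance was 1.62. Rtkn2 and Akap5 were the closest pair (0.39), followed by Aqp5 with Sema3e (0.44) and Ager with Aqp5 (0.52). Ager and Akap5 were the furthest apart (3.44). Cldn18, Pdpn and Igfbp2 lay between, at 0.60 to 0.75 from each other, and Hopx was nearest to Clic5 (0.87). After Clic5, Hopx was nearest to Pdpn (1.03), then to Akap5 (1.05) and Rtkn2 (1.12), and was further from Sema3e (1.99), Aqp5 (2.27) and Ager (2.69). The division into Ager, Aqp5 and Sema3e on one side and Rtkn2 and Akap5 on the other was seen in the values and was not tested.

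**Figure D3:**
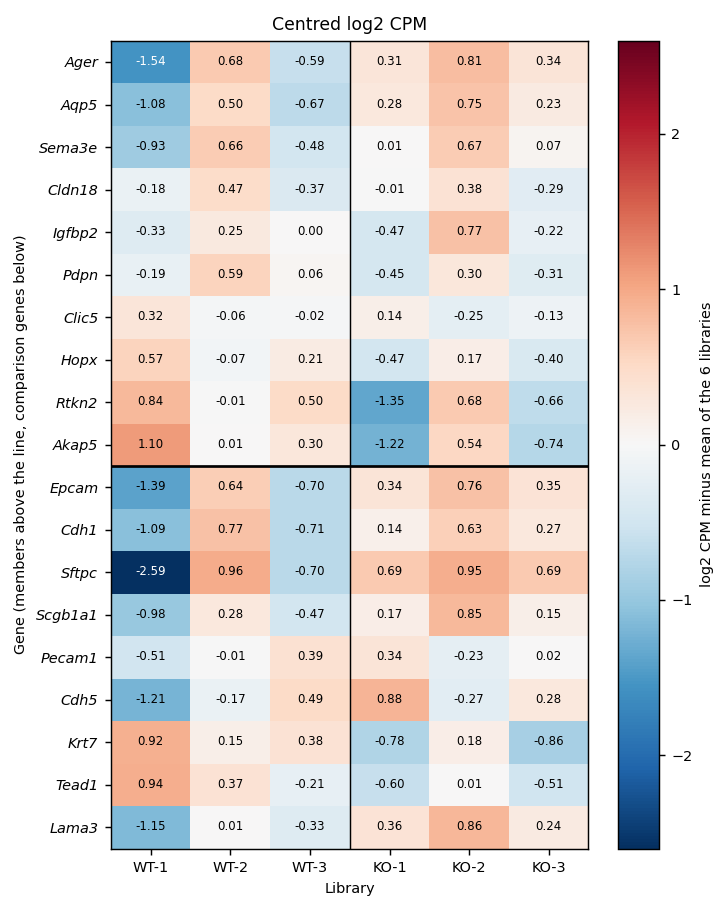
Centred log2 CPM (colour and number, log2 CPM minus the mean of the 6 libraries) of the 10 AT1 genes above the line and of 9 comparison genes below it, by library (x axis). Ager, Aqp5 and Sema3e share the pattern of Epcam, with WT-1 and WT-3 low, while Rtkn2 and Akap5 share that of Krt7, with WT-1 high and KO-1 and KO-3 low.

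Ratios of RPKM within a library do not depend on how libraries are scaled. The ratio of Ager to Epcam, the adhesion molecule of epithelial cells in general, was 3.36, 3.81 and 4.01 in WT-1, WT-2 and WT-3 and 3.65, 3.87 and 3.71 in KO-1, KO-2 and KO-3. It thus held within 1.20-fold in 6 libraries between which Ager itself differed from 214 to 1093 CPM. The ratio of Rtkn2 to Akap5 was 0.207, 0.246 and 0.286 in WT-1, WT-2 and WT-3 and 0.226, 0.274 and 0.263 in KO-1, KO-2 and KO-3, a 1.38-fold range. In contrast, the ratio of Ager to Akap5 was 3.21, 31.9 and 10.9 in WT-1, WT-2 and WT-3 and 58.1, 24.2 and 42.6 in KO-1, KO-2 and KO-3, an 18.1-fold range. WT-1 was lowest and KO-1 highest for it, and the WT and KO libraries overlapped because WT-2 lay above KO-2. The ratio of Ager to Hopx was 0.524, 3.82 and 1.31 in WT-1, WT-2 and WT-3 and 3.91, 3.55 and 3.81 in KO-1, KO-2 and KO-3. It was alike in the 3 KO libraries and in WT-2, and lower in WT-3 and WT-1. The pairs of genes were chosen after the profiles had been seen. Epcam was among the 5 genes closest to Ager in profile (distance 0.20), so its near-level ratio is no separate result. It does not stand for all epithelial genes. The keratin genes Krt8, Krt18 and Krt19 differed 1.29-fold, 1.27-fold and 1.15-fold between their highest and lowest WT libraries, against 4.10-fold for Epcam.

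**Figure D4:**
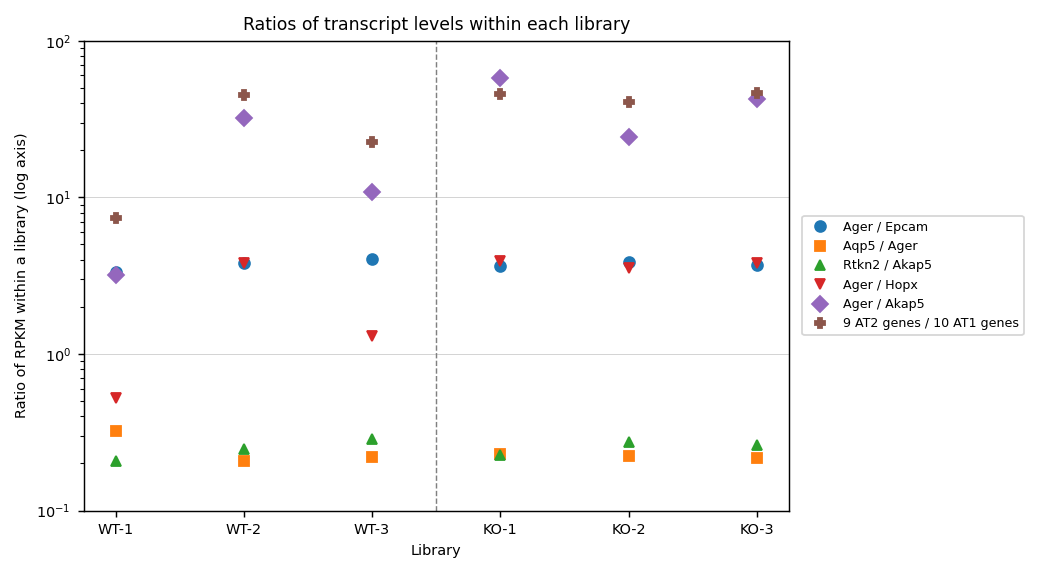
Ratio of RPKM within each library (y axis, log scale; x axis, library) for 5 pairs of genes and for the sum of 9 AT2 genes over the sum of 10 AT1 genes. The ratios of Ager to Epcam and Rtkn2 to Akap5 are nearly level, while Ager to Akap5 runs from 3.21 in WT-1 to 58.1 in KO-1. Aqp5 to Ager is 0.322 in WT-1 and lies between 0.207 (WT-2) and 0.230 (KO-1) elsewhere, a 1.56-fold range.

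Transcripts of other lung cells moved between the same libraries. The summed level of 9 AT2 genes, led by the surfactant genes Sftpc and Sftpb, was 5589, 52517 and 16159.5 CPM in the WT libraries and 40892 to 50323 CPM in KO. All 9 had a log2 fold change above 0 (median 0.77) and 0 were called. Among the WT libraries WT-1 was lowest and WT-2 highest, as for Ager. The summed level of the 10 AT1 genes, 1657 to 2467 CPM in WT and 1913 to 2601 CPM in KO, varied far less, so that the AT2 genes stood to the AT1 genes (summed RPKM) at 7.35, 45.0 and 22.5 in WT-1, WT-2 and WT-3 and 46.0, 40.5 and 46.6 in KO-1, KO-2 and KO-3. That sum adds genes of unlike pattern, since WT-1 was the lowest library for Ager and the highest for Hopx, Clic5 and Akap5. The ratio of Sftpc to Ager (RPKM) had a 2.67-fold range over the 6 libraries, against 6.34-fold for the ratio of the sums. The adhesion genes Epcam and Cdh1 (E-cadherin) were at 60.7, 249 and 98.3 CPM in WT-1 to WT-3 and 202, 269 and 203 CPM in KO-1 to KO-3 for Epcam and 325, 1185 and 424 CPM in WT-1 to WT-3 and 764, 1072 and 837 CPM in KO-1 to KO-3 for Cdh1. The 4 club cell genes, led by Scgb1a1 and Cyp2f2, summed to 15895 to 41683 CPM in WT and 35002 to 58709 CPM in KO, and the 5 mesothelial genes, led by Msln and Upk3b, to 80.0 to 144 CPM in WT and 171 to 199 CPM in KO. The 8 EC genes summed to 1462 to 2675 CPM in WT and 1675 to 2829.8 CPM in KO, highest in KO-1 and lowest in WT-1, and the 10 AT1 genes stood to them (summed RPKM) at 1.68, 2.33 and 0.959 in WT-1, WT-2 and WT-3 and 1.17, 2.75 and 1.40 in KO-1, KO-2 and KO-3. That ratio was highest in KO-2 and WT-2 and did not separate the groups. The 7 heart muscle genes summed to 12.1 to 44.7 CPM in WT and 14.7 to 19.0 CPM in KO, and the T and NK cell genes, of which 3 of 6 were tested, to 1.93 to 2.95 CPM in WT and 4.23 to 6.79 CPM in KO. The 6 leukocyte genes, led by Lyz2 and Laptm5, summed to 1488 to 13119 CPM in WT and 11546 to 13483 CPM in KO. Nearly all of that sum was Lyz2, which AT2 cells also make. It was at 1428, 13006.5 and 4549 CPM in WT-1 to WT-3 and 11519, 13362 and 11416 CPM in KO-1 to KO-3. Laptm5 was at 31.3, 58.6 and 64.9 CPM in WT-1 to WT-3 and 82.2, 48.0 and 46.5 CPM in KO-1 to KO-3. Of the 6 genes 1 was called, Cd79a of B cells (log2 fold change 2.53). The 5 ciliated cell genes summed to 116 to 141 CPM in WT and 124 to 161 CPM in KO, the 7 fibroblast and mural cell genes to 376 to 787 CPM in WT and 546 to 772 CPM in KO, and the 6 genes of aerocytes, the capillary ECs that lie closest to AT1 cells, to 227 to 348 CPM in WT and 257 to 460.2 CPM in KO, with 0 called in each. The part of these cells in the values of the AT1 genes was not tested.

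Another 16 genes known from AT1 cells were looked at beside the 10. All 16 were tested and 0 were called, with 10 log2 fold changes above 0 and 6 below and a median of 0.12. At an unadjusted p under 0.05 there were 2 of 16 (edgeR's quasi-likelihood test), against 10.3% of all genes. Lama3, a laminin chain of epithelial basement membranes, was at 5.85, 13.1 and 10.3 CPM in WT-1 to WT-3 and 16.7, 23.7 and 15.3 CPM in KO-1 to KO-3, and its log2 fold change was 0.93 (adjusted p = 0.388, standard error 0.31). The groups did not overlap for Lama3, higher in KO, and for Lmo7, lower in KO, that is for 2 of 16, against 17.8% of all genes. Krt7, a keratin of simple epithelia, was at 112, 66.0 and 77.6 CPM in WT-1 to WT-3 and 34.7, 67.4 and 32.8 CPM in KO-1 to KO-3, and its log2 fold change was -0.92 (adjusted p = 0.412, standard error 0.32). WT-2 and KO-2 were alike for it, at 66.0 and 67.4 CPM. Some of the 16 were like one or the other pattern of the 10 genes. Those patterns were drawn from these same libraries, so the likeness is no independent support. Gprc5a, a retinoic acid-induced receptor, was at 113, 383 and 172 CPM in WT-1 to WT-3 and 218, 327 and 227 CPM in KO-1 to KO-3, low in WT-1 and WT-3 like Ager, and the basement membrane collagen genes Col4a3 and Col4a4 and the epithelial sodium channel gene Scnn1g were likewise lower in WT-1 and WT-3 than in WT-2 and KO-2. Lmo7, at 147, 96.5 and 98.2 CPM in WT-1 to WT-3 and 78.5, 96.2 and 64.9 CPM in KO-1 to KO-3, and the small heat shock gene Cryab, at 119, 105 and 92.6 CPM in WT-1 to WT-3 and 51.0, 104 and 63.3 CPM in KO-1 to KO-3, were highest in WT-1 like Akap5. Emp2 and Vegfa, which ECs and other cells also express, were at 255 RPKM (178 to 344) and 22.0 RPKM (19.4 to 23.6), with log2 fold changes of 0.30 and 0.12. Spock2 (-0.11), Gramd2 (-0.30), Cyp2b10 (-0.11), Ndnf (0.84), Flrt3 (0.05) and Itgb6 (0.18) did not pass the test either (log2 fold changes in parentheses).

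Of 6 regulators known from the AT1 lineage, 0 were called. Nkx2-1, the lung epithelial homeodomain factor, was at 16.1, 24.4 and 17.0 CPM in WT-1 to WT-3 and 22.1, 22.7 and 17.5 CPM in KO-1 to KO-3, a log2 fold change of 0.12 (standard error 0.20). It varied less between libraries than Ager or Akap5. Yap1 and Wwtr1, the YAP and TAZ coactivators, which ECs also express, had log2 fold changes of -0.15 and -0.13. Tead1, which encodes a DNA-binding partner of both, was at 73.5, 49.6 and 33.3 CPM in WT-1 to WT-3 and 25.4, 38.7 and 26.9 CPM in KO-1 to KO-3, and its log2 fold change was -0.78 (unadjusted p = 0.0304, adjusted p = 0.455, standard error 0.30, edgeR's quasi-likelihood test). WT-1 was its highest and KO-1 its lowest library, as for Akap5. Gata6 and Klf5 had log2 fold changes of 0.05 and -0.25.

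Among 11607 other genes with a mean log2 CPM above 1, those whose profile over the 6 libraries was closest to the mean profile of the 10 AT1 genes were Aldh1a7 (distance 0.17), Selenbp1 (0.20), Fgd4 (0.21), Wdr78 (0.21) and Plekhb1 (0.22). Their profile is high in WT-2 and KO-2, and it stands for neither of the patterns above. The search was therefore repeated for Ager and for Akap5 after their values had been seen. Among the 5 genes closest to Ager were Slc16a7 (0.17), Emb (0.19), Epcam (0.20) and Nectin2 (0.21). Closest to Akap5 were Zfp365 (0.45), Akr1c14 (0.55), Scel (0.59), which encodes sciellin, Krt7 (0.64) and Plb1 (0.66), all further away than Rtkn2. Zfp365 lies on chromosome 10 from 67886103 to 67912662 on the minus strand, 66907 bases from Rtkn2, and was at 7.88, 5.34 and 5.20 CPM in WT-1 to WT-3 and 2.15, 6.92 and 2.52 CPM in KO-1 to KO-3. It was low in KO-1 and KO-3 as Rtkn2 was.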

How the data were processed

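Libraries of mouse lung EC RNA (3 WT, 3 leene-KO, all AngII-infused) were grouped by the sample labels. The authors deposited raw counts per gene, 1 table per library. Per the file headers, featureCounts 2.0.0 counted uniquely aligned reads over exons on the reverse strand with Ensembl release 84 (GRCm38). The submitters' processing notes name STAR 2.5.4b. Reads shared by several genes were not counted. Symbols came from GENCODE M21, for 47224 of 47729 genes.

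Counts were tested in R 4.3.3 with edgeR 4.0.16 (filterByExpr, TMM, glmQLFit and glmQLFTest with default options, genotype as the only term), and p-values were adjusted over 14625 genes by the Benjamini-Hochberg method. Standard errors are the fold change divided by the square root of F, and 95% intervals use its degrees of freedom. CPM use TMM-scaled library sizes, RPKM also the deposited gene length, and log2 CPM a prior count of 2. Alternatives were DESeq2 1.42.0, limma-voom (limma 3.58.1), the likelihood ratio test, other scalings and filters, robust dispersions, a block for replicate number, and each library left out in turn. The libraries differed by more than sampling noise (lowest chi-square per degree of freedom 40.5). The members and gene lists were chosen with earlier results of these data known. The genes that could be named by rule were all members, all other AT1 genes and regulators, the 2 most abundant genes of each further list, and the 5 genes closest to the mean profile. Cd79a, the genes closest to Ager and to Akap5, and those so marked in the closing section were named after their values were seen. An item among the genes closest to Ager is not reported here. With 3 libraries against 3, an exact permutation test cannot give a p below 0.1.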

Additional observations from a re-analysis of the deposited data

How the results depend on the processing

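Direction and side of the threshold were the same in 161 of 170 repeats of the member tests. Cldn18 and Igfbp2 turned from slightly above 0 to -0.13 and -0.0010 with total counts alone, a scaling that moved the median of all genes from 0.03 to -0.13, and with libraries left out Cldn18 ran from -0.18 to 0.29 (below 0 without WT-1, WT-3 or KO-2) and Igfbp2 from -0.36 to 0.35 (below 0 without WT-1 or KO-2). Ager ran from 0.32 to 1.46 and Aqp5 from 0.41 to 1.27 with libraries left out, and both passed only without WT-2, so that 0 to 2 members were called. Members with an unadjusted p under 0.05 numbered 2 with total counts alone (Rtkn2 and Akap5) and 3 without a filter on low counts. With libraries left out, such members numbered 0 to 4. Among all genes, 1237 of 14625 tested had such a p with total counts alone and 2293 of 26138 without a filter. The number was 986 to 3188 genes with libraries left out, beside 1506 of 14625 in the main test. Over all genes, 16 calls became 187 with DESeq2, 26 with limma-voom, 211 with the likelihood ratio test, 26 with RLE and 31 with upper-quartile scaling, 123 with total counts alone (61 higher, 62 lower, against 5 and 11), 152 without a filter, and 0 to 791 with libraries left out. The 0 calls were those without a KO library, where 986 to 1112 genes had an unadjusted p under 0.05 in edgeR's test. For these counts the cause was not tested. The median log2 fold change of the members stayed between -0.27 and 0.08, and the log2 ratio of their summed CPM (KO over WT, 0.15) between -0.0099 and 0.35.

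With the replicate number as a block, 3 members had an unadjusted p under 0.05 (Ager, Pdpn and Aqp5), 0 were called, and 0 genes were called in all, with 1776 at an unadjusted p under 0.05. Same-numbered libraries correlated at -0.08, 0.22 and 0.01 in their deviations from the group means. WT-2 correlated best with KO-2, whereas WT-1 and WT-3 correlated best with another number (KO-3 and KO-1, both at 0.19). Deviations of 3 libraries sum to 0 within a group, so these values cannot decide whether libraries were paired.

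Counts of at least 181 stand behind each member's value, so the spread between libraries, not counting error, limits these comparisons.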

Other observations

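Genes other than those the naming rule picked were chosen here after their values were seen. The epithelial keratin genes did not follow Epcam and Cdh1. Krt8 was at 15.3, 16.6 and 12.8 CPM in WT-1 to WT-3 and 12.6, 17.2 and 9.69 CPM in KO-1 to KO-3, and Krt18 at 30.5, 32.6 and 25.7 CPM in WT-1 to WT-3 and 24.5, 39.0 and 24.8 CPM in KO-1 to KO-3. Krt19 was at 59.9, 59.6 and 52.1 CPM in WT-1 to WT-3 and 45.0, 61.0 and 34.5 CPM in KO-1 to KO-3. Their highest and lowest WT libraries differed 1.29-fold, 1.27-fold and 1.15-fold, against 4.10-fold for Epcam, and 0 of the 3 were called.

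Of 5 genes known from alveolar cells in transition from type II to type I, 0 were called and 3 had groups that did not overlap. Cldn4, a claudin, was at 3.87, 6.31 and 3.42 CPM in WT-1 to WT-3 and 9.33, 12.3 and 7.55 CPM in KO-1 to KO-3 (log2 fold change 1.10, adjusted p = 0.302, edgeR's quasi-likelihood test). Sfn, which encodes stratifin, was at 6.27, 5.78 and 7.73 CPM in WT-1 to WT-3 and 4.43, 4.12 and 3.62 CPM in KO-1 to KO-3 (log2 fold change -0.70, adjusted p = 0.319, same test). Ndrg1, a stress-responsive gene, was at 62.8, 79.9 and 46.5 CPM in WT-1 to WT-3 and 29.0, 36.7 and 36.4 CPM in KO-1 to KO-3 (log2 fold change -0.89, adjusted p = 0.274, same test). Cldn4 was higher in all 3 KO libraries, and Sfn and Ndrg1 were lower in all 3. Over all genes tested, 17.8% had groups that did not overlap. Areg, which encodes amphiregulin, was at 0.808, 8.69 and 1.59 CPM in WT-1 to WT-3 and 3.91, 3.24 and 2.10 CPM in KO-1 to KO-3 and overlapped.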
